A study of Zea mays with 6 samples.

Results

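Transcripts of 4 genes of the low-oxygen response were followed in maize shoot tips: adh1 and adh2, which encode alcohol dehydrogenases, pdc3, which encodes a pyruvate decarboxylase, and Hb2, which encodes a haemoglobin. They were taken by name from the array, as the probe sets Zm.1540.1.S1_a_at (adh1, LOC542363), Zm.2859.1.A1_a_at (adh2, LOC542364), Zm.3994.1.S1_at (pdc3, LOC541919) and Zm.11985.1.A1_at (Hb2, LOC732720), 4 of the 17621 probe sets that are not controls. Each of these genes had 1 named probe set. In RefSeq's table for the B73 reference assembly, adh1 and pdc3 lie on chromosome 1, adh2 on chromosome 4 and Hb2 on chromosome 6, so none lies on chromosome 5. On chromosome 6, of which DpDf plants lack 1 copy of the short arm tip, Hb2 is placed towards the opposite end.

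The tested plants were DpDf (duplicate-deficient) seedlings from the translocation T5-6b, which carry 3 copies of the greater portion of chromosome arm 5S and 1 copy of the chromosome 6 tip. They were set against wild-type siblings with 2 copies of each, and all plants were of the B73 inbred background, segregated in the same families and were 14 days old. Each group had 3 pools of 8 plants, dissected to shoot tips that held the shoot apical meristem and leaf primordia, and each pool was hybridised to 1 Affymetrix maize array. Values of single pools are listed below in the order of replicates 1, 2 and 3. In such mixed tissue, fewer cells of a type and less RNA per cell cannot be told apart.

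In plant cells short of oxygen, pyruvate decarboxylase turns pyruvate into acetaldehyde and alcohol dehydrogenase reduces this to ethanol, which regenerates the NAD+ that glycolysis needs. Maize has a pair of unlinked alcohol dehydrogenase genes, adh1 and adh2, both known to be induced when seedlings are flooded. Plant haemoglobins of the non-symbiotic kind bind oxygen tightly and convert nitric oxide to nitrate, and their genes respond to low oxygen and to nitrate.

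The arrays were not equally alike. The highest Spearman correlation of wild type replicate 3 with any array was 0.932, while no pair of the remaining 5 arrays correlated below 0.988, and its median intensity was 415.9 against 490.9 to 506.1 on the others. Across the 10661 probe sets tested, the median of DpDf minus wild type on the log2 scale was 0.18 when all 6 arrays were used and 0.02 when wild type replicate 3 was left out, and results are given both ways. On the log2 scale, the 3' signal exceeded the 5' signal of 5 maize control transcripts by a mean of 2.68, 1.46 and 1.39 in the DpDf pools, against 0.996, 1.10 and 1.12 in the wild-type pools. The value was thus higher in every DpDf pool than in every wild-type pool, and its effect cannot be told apart from that of genotype. For adh2 and Hb2 the values without DpDf replicate 1 and wild type replicate 3, a setting added after the data were seen, are given beside the results. That setting leaves the groups apart in 3' over 5' signal. Of the shoot meristem markers, the homeobox genes kn1 and lg3 and the receptor-like gene fea2 were measured, and all 3 passed the filter on low values. The mean log2 level of these 3 ran from 9.05 to 9.64 in DpDf pools and from 8.78 to 9.39 in wild-type pools. Of the 11 leaf primordium genes on the array 7 passed it, while yab9, ocl2, ns1 and ns2 did not. The mean log2 level of these 7 was 10.13 to 10.20 in DpDf pools and 9.64 to 10.23 in wild-type pools. The only root marker on the array, zrp4, did not pass. It did exceed the array's 40th percentile, the filter's bound, in DpDf replicate 1 (8.38 against 8.32) and wild type replicate 3 (8.70 against 8.28). The 9 green leaf genes on the array all passed, with a mean log2 level of 11.82 to 11.94 in DpDf pools and 11.25 to 11.82 in wild-type pools.

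All values below are log2(intensity + 1) unless said otherwise, and groups were compared with limma over all probe sets tested, with a Benjamini-Hochberg adjusted p under 0.05 as the threshold for a call. With all 6 arrays 0 of the 4 genes were called, while 0.0281% of all probe sets were. At an unadjusted p under 0.05 there were 2 of the 4, adh2 and Hb2, beside 1041 of all 10661 probe sets. Without wild type replicate 3, 1 of the 4 was called, Hb2, beside 3.33% of all probe sets, and only 0.263% of all probe sets were called lower in DpDf as Hb2 was. With all 6 arrays adh2 was higher in every DpDf pool than in every wild-type pool, which leaving out an array cannot undo. That pattern held for 23.2% of all probe sets with all 6 arrays and for 25.4% without wild type replicate 3, so adh2 shares it with many transcripts. Hb2 was lower in every DpDf pool than in every wild-type pool, a pattern found in 3.61% of all probe sets with all 6 arrays and in 17.5% without wild type replicate 3. For adh1 and pdc3 the groups overlapped in both settings.

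**Figure D1:**
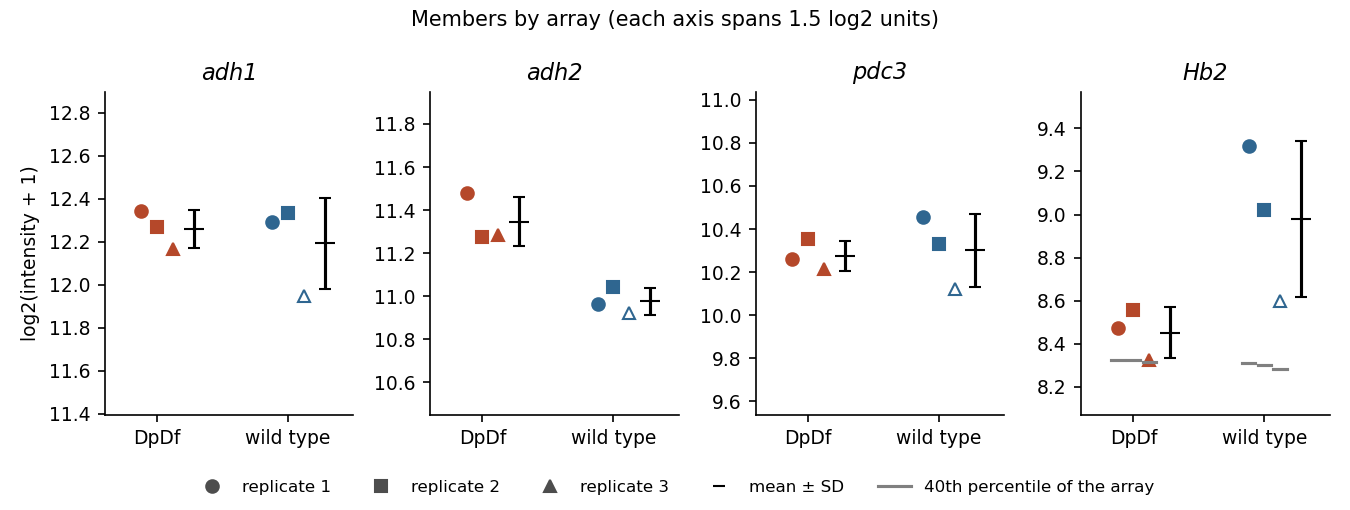
Level of each gene on each array, as log2(intensity + 1), for the 3 DpDf pools and the 3 wild-type pools, with the mean and SD of each group (n = 3) beside the points. Wild type replicate 3 is drawn open, grey bars in the Hb2 panel mark the 40th percentile of each array, and Hb2 in DpDf replicate 3 sits at that bound.

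Pyruvate decarboxylase carries out the first step of ethanol fermentation. The level of pdc3 was 10.26, 10.35 and 10.21 in the DpDf pools, against 10.45, 10.33 and 10.12 in the wild-type pools. DpDf replicate 2 lay above wild type replicate 2, and the lowest array was wild type replicate 3. The group means were 10.28 ± 0.07 in DpDf pools, against 10.30 ± 0.17 in wild-type pools (SD, n = 3 each), a difference of -0.03 with a 95% interval of -0.35 to 0.30 (limma adjusted p = 0.923). The difference was -0.12 without wild type replicate 3, with an interval of -0.31 to 0.07 (limma adjusted p = 0.435). The difference was less than the spread between wild-type pools with all 6 arrays. Without that array too, the interval included 0.

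The pyruvate decarboxylase genes pdc1 and pdc2, which are not among the 4, gave low signal in these shoot tips. The 2 probe sets of pdc1 read 6.39 to 7.18 in DpDf pools and 6.46 to 7.70 in wild-type pools, under the 40th percentile of every array, which lay at 8.28 to 8.33. The 4 probe sets of pdc2 read 6.51 to 7.17 in DpDf pools and 6.61 to 8.68 in wild-type pools. The single reading of pdc2 over the bound was from wild type replicate 3. No probe set of pdc1 or pdc2 passed the filter, so no fold was computed for them.

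Alcohol dehydrogenase completes the pathway, and of its genes adh1 is the one best known for induction by low oxygen. The level of adh1 was 12.34, 12.27 and 12.17 in the DpDf pools, against 12.29, 12.33 and 11.95 in the wild-type pools. Wild type replicate 3 was the lowest of all, and the other wild-type pools lay within the range of the DpDf pools. The group means were 12.26 ± 0.09 in DpDf pools, against 12.19 ± 0.21 in wild-type pools (SD, n = 3 each). Their difference was 0.07 with a 95% interval of -0.28 to 0.42 (limma adjusted p = 0.817), and the median of all probe sets, 0.18, lay above it. It was -0.05 without wild type replicate 3, with an interval of -0.25 to 0.14 (limma adjusted p = 0.72). The sign of the adh1 difference thus turned with that array, and in neither setting did the difference exceed the spread between pools.

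For adh2 the level was 11.48, 11.27 and 11.29 in the DpDf pools, against 10.96, 11.04 and 10.92 in the wild-type pools. The groups did not overlap, and the highest array was DpDf replicate 1, the array of highest 3' over 5' signal. In intensity units adh2 read 2475 to 2849 in DpDf pools and 1936 to 2111 in wild-type pools. The group means were 11.35 ± 0.11 in DpDf pools, against 10.98 ± 0.06 in wild-type pools (SD, n = 3 each), a ratio of 1.29-fold. The log2 difference of 0.37 had a 95% interval of 0.08 to 0.66 and was not called (limma adjusted p = 0.43). It was 0.34 without wild type replicate 3, with an interval of 0.13 to 0.55, again not called (limma adjusted p = 0.104). Leaving out DpDf replicate 1 as well gave 0.28 (limma adjusted p = 0.0642).

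Set against the median of all probe sets, adh2 lay 0.19 above it with all 6 arrays and 0.32 above it without wild type replicate 3. The rank of adh2 within each array shows the same limit. The probe set was brighter than 87.5%, 85.4% and 85.9% of all probe sets in the DpDf pools, against 82.2%, 83.3% and 86.9% in the wild-type pools. By rank, wild type replicate 3 therefore lay among the DpDf pools. Quantile normalization, which acts on those ranks, gave a difference of 0.19 in place of 0.37 (limma adjusted p = 0.586).

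The paralogs were compared within each array through log2 adh1 minus log2 adh2. The size of this value depends on how brightly each probe set reads its transcript, so it gives no ratio of transcripts, but its change between groups shows whether the paralogs moved unequally. It was 0.86, 0.99 and 0.88 in the DpDf pools, against 1.33, 1.29 and 1.03 in the wild-type pools. Every DpDf pool lay below every wild-type pool, and wild type replicate 3 was the wild-type pool nearest to the DpDf pools. The means were 0.91 ± 0.07 in DpDf pools, against 1.22 ± 0.16 in wild-type pools (SD, n = 3 each), a difference of -0.30 (exact permutation test, two-sided, p = 0.1, where 3 against 3 arrays allow no smaller p). Without wild type replicate 3 the wild-type mean was 1.31 ± 0.03 (SD, n = 2) and the difference -0.40. The exact permutation test, two-sided by doubling the smaller tail, gave p = 0.2, the smallest that this form allows for 3 against 2 arrays. With so few arrays this permutation test thus cannot reach 0.05.

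**Figure D2:**
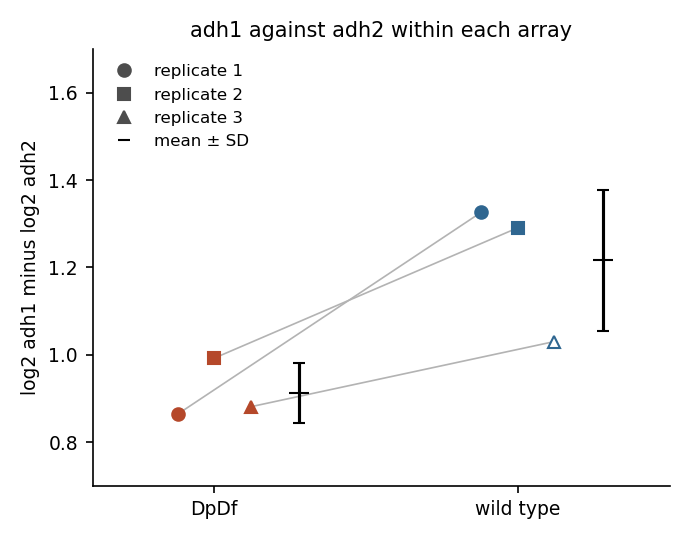
Log2 adh1 minus log2 adh2 on each array, DpDf pools on the left and wild-type pools on the right, with mean and SD (n = 3) and grey lines between pools of the same replicate number. Each of the 3 lines is lower at its DpDf end, and the gap runs from 0.15 for replicate 3 to 0.46 for replicate 1.

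Within replicate numbers, each of which marks a DpDf pool and a wild-type pool of the same set of siblings, the contrast of adh1 against adh2 was lower in the DpDf pool by 0.46, 0.30 and 0.15 in replicates 1, 2 and 3. The mean was -0.30 (two-sided exact sign-flip permutation p = 0.25, the smallest that 3 pairs can give). The paired differences of adh2 were 0.51, 0.23 and 0.37 and those of adh1 0.05, -0.07 and 0.22. The median of all probe sets was 0.04, 0.03 and 0.45 in these pairs, so adh2 lay above it by 0.48 and 0.20 in replicates 1 and 2 but stood at -0.087 against it in replicate 3. Each alcohol dehydrogenase gene was also set against pdc3. The log2 value of adh2 minus pdc3 was 0.92 to 1.22 in DpDf pools and 0.51 to 0.80 in wild-type pools, with no overlap (two-sided exact permutation p = 0.1). That of adh1 minus pdc3 was 1.91 to 2.08 in DpDf pools and 1.83 to 2.00 in wild-type pools, which overlapped (two-sided exact permutation p = 0.3). These 3 contrasts of pairs share their probe sets and none could pass a correction over the 3.

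Hb2 had the largest difference among the 4 genes. Its level was 8.47, 8.56 and 8.32 in the DpDf pools, against 9.32, 9.02 and 8.60 in the wild-type pools. The groups did not overlap, but wild type replicate 3 lay only just above DpDf replicate 2, at intensities of 386.5 and 375.7. In intensity units the DpDf pools read 319.0 to 375.7 and the wild-type pools 386.5 to 636.6. The means were 8.45 ± 0.12 in DpDf pools, against 8.98 ± 0.36 in wild-type pools (SD, n = 3 each). With all 6 arrays the log2 difference was -0.53, or 0.70 below the median of all probe sets, with a 95% interval of -0.998 to -0.058 (limma adjusted p = 0.47).

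Without wild type replicate 3, Hb2 was called lower in DpDf, at 8.45 ± 0.12 in DpDf (SD, n = 3) against 9.17 ± 0.21 in wild type (SD, n = 2). The difference was -0.72 ± 0.11 (SE) with an interval of -0.99 to -0.45 (limma adjusted p = 0.0244), and only 0.732% of all probe sets had a lower one. In intensity terms Hb2 stood at 0.608 times its wild-type level. In the added setting that leaves out DpDf replicate 1 as well, the array of highest 3' over 5' signal, it was -0.73 (limma adjusted p = 0.0196). With the replicate number as a block and replicate 3 of both groups left out the difference was -0.65 and was not called (limma adjusted p = 0.106). Within replicate numbers 1, 2 and 3, the differences of Hb2 were -0.84, -0.46 and -0.28.

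The Hb2 signal was dim. In DpDf pools it lay 0.15, 0.23 and 0.01 above the 40th percentile of its array, the bound used for background, and in wild-type pools 1.00, 0.72 and 0.31 above it. By rank it was brighter than 40.1% to 43.2% of probe sets in DpDf pools and than 47.5% to 56.4% in wild-type pools, so the groups were apart by rank as well. Near background a log2 difference can depart from the change in transcript. In which direction it does so for Hb2 was not tested, and the fold for Hb2 carries that limit.

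**Figure D3:**
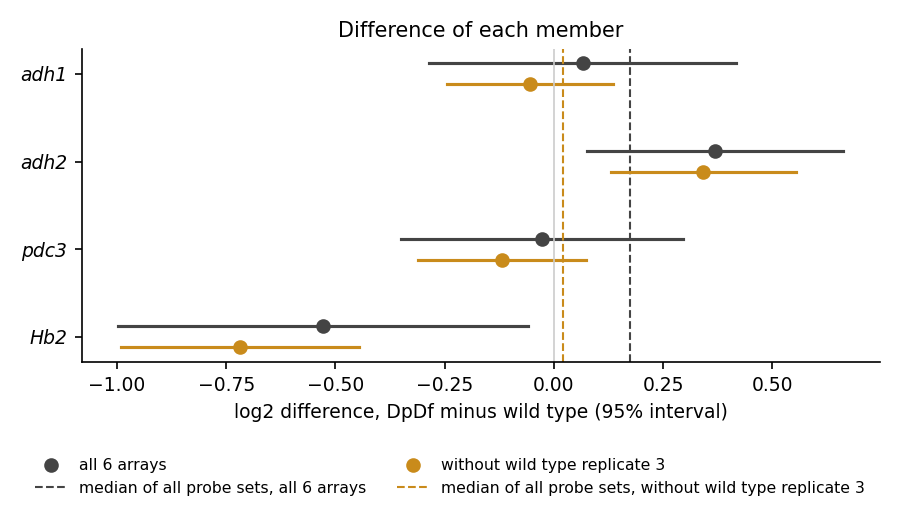
Log2 difference, DpDf minus wild type, of each gene with its 95% interval from limma, with all 6 arrays (grey) and without wild type replicate 3 (yellow); dashed lines mark the median of all probe sets at 0.18 and 0.02. The intervals of adh1 and pdc3 include 0, those of adh2 lie above 0 and those of Hb2 below 0 in both settings, while only Hb2 without wild type replicate 3 passed the adjusted threshold.

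Besides adh1, adh2 and pdc3, the fermentation list held 3 genes that passed the filter, and of its 6 measured genes 0 were called in either setting. Among them the group values of adh2 alone did not overlap with all 6 arrays, higher in DpDf as were 23.2% of all probe sets. Leaving out wild type replicate 3 cannot bring overlap to adh2, and 25.4% of all probe sets had its pattern without that array. In that setting fdh1 was lower in every DpDf pool, as were 17.5% of all probe sets. The aldehyde dehydrogenase gene rf2b, whose product is mitochondrial, had a difference of -0.29 with all 6 arrays (limma adjusted p = 0.562) and -0.17 without wild type replicate 3 (limma adjusted p = 0.398). The gene of the cytosolic aldehyde dehydrogenase, rf2c, stood at 0.20 and 0.04 in these settings, and fdh1 at 0.03 and -0.08. The median of the list was 0.05 with all 6 arrays, against 0.18 over all probe sets, and -0.07 without wild type replicate 3, against 0.02.

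The haemoglobin and nitrate list covers haemoglobins and the enzymes that reduce nitrate and assimilate ammonium. With all 6 arrays 0 of its 9 measured genes were called, and without wild type replicate 3 Hb2 was the 1 called. Without that array 8 of the 9 had a negative difference, and the list median was -0.20, against 0.02 over all probe sets; with all 6 arrays 5 of 9 were negative and the median was -0.03, against 0.18. In 4 of the 9, Hb2 among them, every DpDf pool lay below wild type replicates 1 and 2, as in 17.5% of all probe sets.

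Nitrate reductase, encoded by NNR1, carries out the first step from nitrate. Its level was 10.96, 10.96 and 10.30 in the DpDf pools, against 11.38, 11.63 and 10.63 in the wild-type pools. Replicate 3 was the lowest pool of each group, so the groups overlapped. The difference of NNR1 was -0.47 with all 6 arrays (limma adjusted p = 0.564) and -0.76 without wild type replicate 3 (limma adjusted p = 0.115).

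Nitrite reductase, encoded by NIR (LOC542264), showed the same layout in the brighter of its 2 probe sets. It read 9.84, 9.90 and 9.17 in the DpDf pools, against 10.52, 10.49 and 9.77 in the wild-type pools. Its difference was -0.62 with all 6 arrays (limma adjusted p = 0.531) and -0.87 without wild type replicate 3 (limma adjusted p = 0.0862). The dimmer probe set of NIR did not pass the filter.

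For the glutamine synthetase gene gln2 (LOC542400) the difference was -0.18 over 6 arrays and -0.68 without wild type replicate 3 (limma adjusted p = 0.819 and adjusted p = 0.1). The glutamine synthetase gene gln5 (LOC542401) went the other way, at 0.26 and 0.33 (limma adjusted p = 0.562 and adjusted p = 0.117). Its groups did not overlap with all 6 arrays, which leaving out wild type replicate 3 could not change. That pattern with DpDf higher was shared by 23.2% and 25.4% of all probe sets in these settings. The differences of gln1, gln3, gln6 and the glutamate dehydrogenase gene gdh1 lay between -0.03 and 0.25 with all 6 arrays and between -0.20 and -0.03 without wild type replicate 3, and none was called. In 8 of the 9 genes, Hb2 among them and gln5 the exception, replicate 3 was the lowest pool in both groups, which held for 39.6% of all probe sets. This layout was looked for after the values were seen.

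A further haemoglobin gene, Hb (LOC541815, also listed as GLB1), lay under the 40th percentile in all 3 DpDf pools and did not pass the filter. It read 7.19, 7.94 and 6.95 in the DpDf pools, against 8.71, 7.82 and 8.39 in the wild-type pools. The groups overlapped, because wild type replicate 2 lay below DpDf replicate 2. No fold is given, since the wild-type mean was itself at about the bound.

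**Figure D4:**
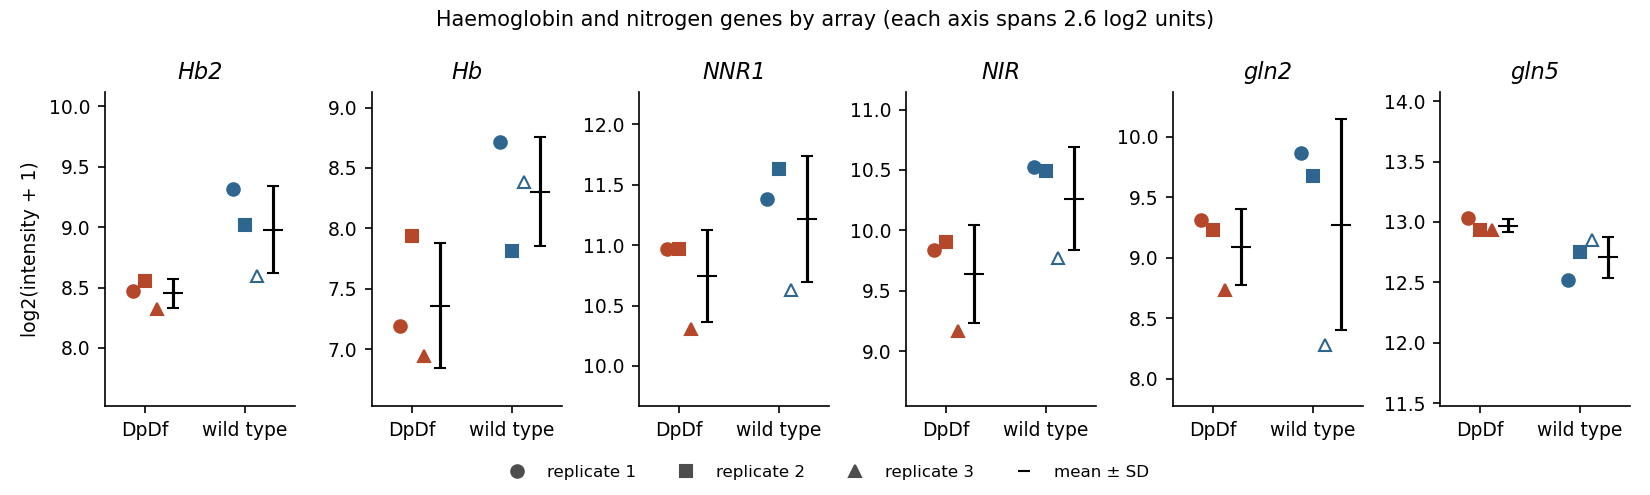
Level of Hb2, Hb, NNR1, NIR, gln2 and gln5 on each array, as log2(intensity + 1), for 3 DpDf pools and 3 wild-type pools with the mean and SD of each group (n = 3). Triangles, replicate 3, are the lowest points of both groups for Hb2, NNR1, NIR and gln2, and gln5 is higher in the DpDf pools.

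Sucrose cleavage and glycolysis feed pyruvate to fermentation, and 15 genes of that list were measured. With all 6 arrays 0 were called. Without wild type replicate 3 there were 2 calls among them, 1 higher and 1 lower. The vacuolar invertase gene ivr2, which splits sucrose, was higher, at 0.54 (limma adjusted p = 0.0155), beside 3.07% of all probe sets called higher. With all 6 arrays ivr2 stood at 0.58 and was not called (limma adjusted p = 0.302). It lies in the first 40% of chromosome 5, taken here as the short arm. The gene gpc4, of a cytosolic glyceraldehyde-3-phosphate dehydrogenase that is itself induced by low oxygen in maize, was lower, at -0.63 (limma adjusted p = 0.0329), beside 0.263% of all probe sets called lower, and with all 6 arrays it stood at -0.37 (limma adjusted p = 0.562). Of the 3 probe sets of the related gene gpc3, the brightest, which stands for the gene here, was not called, at -0.30 (limma adjusted p = 0.162). The other gpc3 probe sets were called lower in this setting, at -0.60 and -0.62 (limma adjusted p = 0.0409 and adjusted p = 0.0315), and stood at 0.05 and -0.02 with all 6 arrays. Without wild type replicate 3, 12 of the 15 genes had a negative difference, with a median of -0.08 against 0.02 over all probe sets. With all 6 arrays 9 of the 15 did, and the median was -0.04 against 0.18. Every DpDf pool lay below wild type replicates 1 and 2 in 8 of the 15, where 17.5% of all probe sets did. In 2 of the 15 every DpDf pool lay above both, a pattern of 25.4% of all probe sets. Against all 3 wild-type pools 0 of the 15 were lower in every DpDf pool, beside 3.61% of all probe sets.

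Mitochondrial respiration is the route that fermentation replaces, and 0 of its 11 measured genes were called in either setting. Their median difference was -0.04 with all 6 arrays, against 0.18 over all probe sets, and -0.12 without wild type replicate 3, against 0.02, and the lowest in both settings was vdac1b, of a channel of the outer mitochondrial membrane, at -0.22 and -0.56 (limma adjusted p = 0.695 and adjusted p = 0.0535). This gene was named after its values were seen. Without wild type replicate 3, 7 of the 11 genes were lower in every DpDf pool than in both wild-type pools, where 17.5% of all probe sets were, but wild type replicate 3 itself was lower than all DpDf pools for vdac1b, at 11.03 against 11.30 to 11.60 in the DpDf pools. Of ethylene synthesis and perception only 2 genes were measured, and 0 of them were called.

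**Figure D5:**
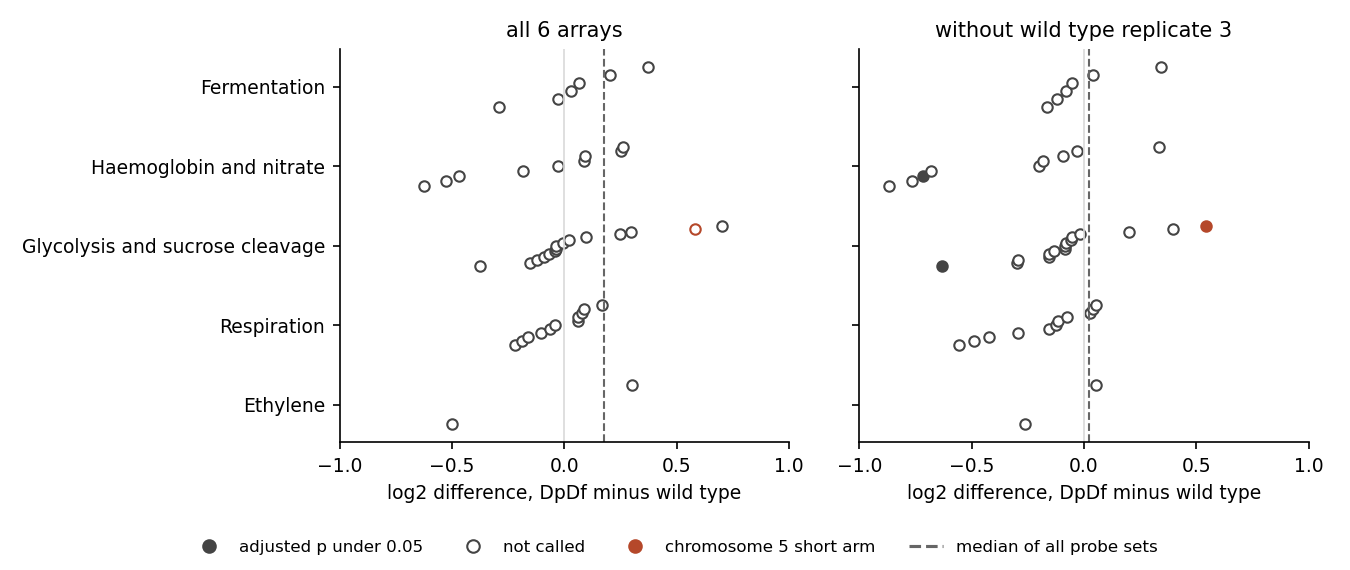
Log2 difference, DpDf minus wild type, of each measured gene (1 point a gene) of 5 lists, with all 6 arrays on the left and without wild type replicate 3 on the right; filled points passed the adjusted threshold, red marks the chromosome 5 short arm and dashed lines the median of all probe sets. No point is filled on the left, and on the right the filled points are Hb2 and gpc4 at negative values and ivr2 at a positive value.

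The genes whose profile over the arrays was most like that of each of the 4 were found by the root mean square difference between log2 profiles, each centred on its own mean, among 977 named probe sets. Over 6 arrays adh2 was nearest to the cellulose synthase genes CesA-1 and CesA-8 and to Bk2L3, at 0.03, 0.04 and 0.06, where the median over all named probe sets was 0.23. CesA-1 was also the nearest over the 5 arrays without wild type replicate 3, at 0.03, followed by LOC541622 and thi1. Its own difference was 0.39 over 6 arrays and 0.36 without wild type replicate 3 and was not called (limma adjusted p = 0.408 and adjusted p = 0.0883).

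Hb2 had no neighbour as close in absolute terms, but this measure grows with how much a profile varies over the arrays. The root mean square of the centred Hb2 profile was 0.34 over 6 arrays and 0.37 over 5. For adh2 it was 0.20 and 0.18, for adh1 0.14 and 0.06, and for pdc3 0.11 and 0.08. The nearest to Hb2 were gpc4, pdh2 and LON2 over 6 arrays, at 0.11, 0.12 and 0.15. Over 5 arrays they were gpc4, pdh2 and apr, at 0.06, 0.09 and 0.11. The medians over all named probe sets were 0.39 and 0.38. For adh1 the nearest over 6 arrays were cop2, PK and ATP2, at 0.02 to 0.04, and over 5 arrays LOC542483, nph1 and LOC542696, at 0.02 to 0.03. For pdc3 they were LOC542610, elfa3 and CNX over 6 arrays and CDPK, LOC542610 and RPL10 over 5 arrays, at 0.02 to 0.03. The medians over all named probe sets were 0.17 and 0.12 for adh1, and 0.18 and 0.13 for pdc3. No gene was among the nearest to adh1 both with and without wild type replicate 3.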

How the data were processed

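RNA of 3 DpDf and 3 wild-type pools was hybridised to 1 array each. The deposited table holds a linear intensity for each of 17621 probe sets and 113 controls on every array. GCOS 1.2 and GCRMA are named in the submitters' processing notes; which of them made the values, and with what scaling, is not stated there. That the scale is linear follows from the range of the values. The number of arrays limits the precision.

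Values were turned into log2(intensity + 1). Without the controls, testing was limited to probe sets that reached an array's own 40th percentile on 3 or more of the 6 arrays, as all 4 members did. The main test was limma 3.58.1 with lmFit and eBayes (R 4.3.3), with no block, over 10661 probe sets, and the fit was tested on simulated data. Single values were compared by exact permutation in scipy 1.17.1. The 3' over 5' signal came from maize control probe sets (cyclophilin, Gapdh, ubiquitin, actin and ef1a). Alternatives were each array left out, a replicate block, quantile normalization, a pseudocount of 16, no filter and array weights.

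Names came from the platform table through gene identifiers to the RefSeq table of Zm-B73-REFERENCE-NAM-5.0, with 1452 probe sets of a single symbol, 1 of several and 16168 of none; 1060 of 1108 gene identifiers matched. In a list, the probe set of highest mean stands for a gene. Named were the members, the fermentation, haemoglobin and nitrate genes, called genes of the other lists, and the 3 nearest profiles of each member. Members and lists were chosen with earlier results of these data known. Per the labels' growth protocol, the DpDf pool and the wild-type pool of a biological replicate were drawn from the same sibling seedlings, which pairs them by origin; the data did not show it, since their deviations from group means correlated at 0.0757, -0.164 and 0.195.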

Additional observations from a re-analysis of the deposited data

How the results depend on the processing

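Settings were compared with the fit of all 6 arrays. Leaving out single arrays, adh2 stayed higher in DpDf (0.30 to 0.41) and Hb2 lower (-0.72 to -0.36), whereas the difference of adh1 ran from -0.05 to 0.14 and that of pdc3 from -0.12 to 0.049, so both turned sign; the contrast of adh1 against adh2 ran from -0.40 to -0.25. Of 10661 probe sets, the number called ran from 2 to 355 (3.33%), and that of list genes called from 0 to 3. Both were highest without wild type replicate 3. The list genes were the measured genes of the lists of fermentation (6), glycolysis (15), haemoglobin and nitrate (9), respiration (11) and ethylene (2). The difference of adh1 also turned to -0.078 with quantile normalization, to -0.0093 with the replicate block without replicate 3 of both groups, to -0.092 with array weights and to -0.10 without DpDf replicate 1 and wild type replicate 3, a setting added after the data were seen. In that last setting 753 of 10661 probe sets and 7 list genes were called and Hb2 stood at -0.73. Array weights called 2446 of 10661 probe sets and 17 list genes, with Hb2 at -0.56 (limma adjusted p = 0.000343) and adh2 at 0.26 (limma adjusted p = 0.005). They gave wild type replicate 2 a weight of 17.0 and wild type replicate 3 one of 0.0387, and their estimation did not converge. The replicate block with all 6 arrays called 3 probe sets and changed no call of the 4 genes (Hb2 -0.53, limma adjusted p = 0.399), and the paired contrast of adh1 against adh2 was -0.30. With quantile normalization the unpaired contrast of adh1 against adh2 was -0.27, and its groups were no longer fully apart. Apart from the settings named, the cause was not tested where values moved. With so few arrays, and with Hb2 near the background bound, small changes of these genes could not be detected.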
